A study of Mus musculus with 14 samples.

Results

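The 9 genes followed here belong to the osteoclast and cell-fusion programme of mouse macrophages: Acp5, Ctsk, Dcstamp, Ocstamp, Nfatc1, Spp1, Oscar, Itgb3 and Gpnmb. They were found on the arrays through the RefSeq accession of each probe, which gave 12 probes for the 9 genes, out of 55634 probes and 21356 named genes on the array. Acp5, Nfatc1 and Itgb3 have 2 probes each and the other genes have 1. Of the 12 probes, 10 lay well above background on every array of at least 1 group and entered the tests. The only Ocstamp probe and the second Itgb3 probe did not, so 8 of the 9 genes were tested.

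Osteoclasts are the cells that dissolve bone. They form when precursors of the monocyte and macrophage lineage, kept alive by M-CSF, receive the cytokine RANKL, switch on the transcription factor Nfatc1, fuse through Dcstamp and Ocstamp, attach to bone with the integrin that Itgb3 belongs to, and secrete acid, the phosphatase Acp5 and the protease cathepsin K. Macrophages share much of this gene set at lower levels, and under other cytokines they can fuse into giant cells without resorbing bone.

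The cells were bone marrow-derived macrophages from female C57BL/6 mice, 8 weeks old, grown for a week in recombinant M-CSF; the labels name no RANKL. All animals carried LysM-Double-Cre, a Cre recombinase driven from the lysozyme M gene of myeloid cells. Cells of LysM-Double-Cre x TFEB transgene+ mice (transgenic) and of LysM-Double-Cre x TFEB transgene- mice (wild-type in the titles) spent 24 h either in DMEM alone (control) or in DMEM with supernatant and lysate of EO771 mammary tumour cells (tumour material). TFEB is a transcription factor for lysosomal genes and a relative of Mitf, which takes part in osteoclast formation. Analysed were 3 wild-type control replicates on 4 arrays, 3 wild-type tumour replicates on 4 arrays, 3 transgenic control replicates on 3 arrays, and 2 transgenic tumour replicates on 3 arrays. Transgenic tumour replicate 1 is not analysed here. The arrays lay on 2 slides. Slide 2 held the second arrays of wild-type control and wild-type tumour replicate 3, transgenic control replicate 3 and all transgenic tumour arrays. Wild-type values within slides 1 and 2 therefore share replicate 3. Values within slide 2 rest on 1 array of each group other than transgenic tumour. The sources used here do not say whether animals were pooled or each replicate came from its own animal. The p-values measure the spread between these arrays, not between animals. Arrays of 1 replicate formed a block, but at its correlation of 0.0478 they counted almost as separate samples. The counts with such arrays averaged are given at the end. The design asks what tumour material does to each genotype and what the transgene does in each medium.

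Every level below is a probe's signal divided by the 75th percentile of its array, as log2, so levels of different probes are not comparable. From 35.5% to 40.2% of the spots on an array were well above background and 0 were saturated. Of 10 macrophage markers, 9 were above background on all arrays in every group, and Lyz2 was not; its probe was above background on 4 of 14 arrays. Of 8 epithelial tumour markers, Epcam, Krt8, Krt18, Krt19, Cdh1 and Cldn4 lay above background on no array. Cldn7 did on 0 of 4 wild-type control and 3 of 4 wild-type tumour arrays and on 1 of 3 in each transgenic group, and Esr1 on 4 of 4, 0 of 4 and, in each transgenic group, 2 of 3. The summed level of the 8 was 0.722 to 0.859 times the 75th percentile in wild-type controls, 0.671 to 0.919 with tumour material, 0.509 to 0.821 in transgenic controls and 0.754 to 0.782 in transgenic tumour cells; its part in the results was not tested. Transgenic control replicate 1 correlated with the other replicates of its group at 0.955 at the lowest, against 0.988 to 0.991 among wild-type controls. The summed level of 8 neutrophil granule and calprotectin genes was 576 times the array's 75th percentile in that replicate, 178 and 198 in the other transgenic controls, 234 to 250 in wild-type controls, 53.7 to 91.3 with tumour material in wild-type cells and 32.1 to 35.4 in transgenic cells. Its part in the results was not tested; the calls and counts of the 9 genes, and the list counts, that change without that replicate are given both ways. Slide column 4 holds transgenic controls 1 and 2 as well as the repeat array of transgenic tumour replicate 3; there the scanner software applied a larger detrending (root mean square 0.253 to 0.331, against 0.0964 to 0.126 elsewhere).

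Tumour material split the osteoclast genes of wild-type macrophages. Acp5 rose, and Dcstamp, Itgb3, Spp1, Nfatc1 and Gpnmb fell, while Ctsk and Oscar did not pass the test. That is 1 of 8 higher and 5 of 8 lower, where 22.6% of all probes were called higher and 16.9% lower (limma, Benjamini-Hochberg adjusted p under 0.05 over 20208 probes). The median of the 8 log2 differences was −0.57, against 0.05 over all 15834 genes. Ctsk was called lower too without transgenic control replicate 1. In transgenic macrophages Acp5 again rose and Dcstamp and Itgb3 fell, 1 higher and 2 lower, where 14.7% of probes were called higher and 10.2% lower. The other 5 genes did not pass there, and the median was 0.22, against 0.06 over all genes; without transgenic control replicate 1 Ctsk was called higher there. The balance over all probes depended on scaling: quantile normalization called 3891 higher and 4090 lower in wild-type cells, against 4575 and 3418 here, and 2461 and 2401 in transgenic cells, against 2977 and 2066, while the counts among the 8 genes stayed at 1 and 5 and at 1 and 2. In bulk RNA, fewer cells of a type and less RNA per cell cannot be told apart.

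**Figure D1:**
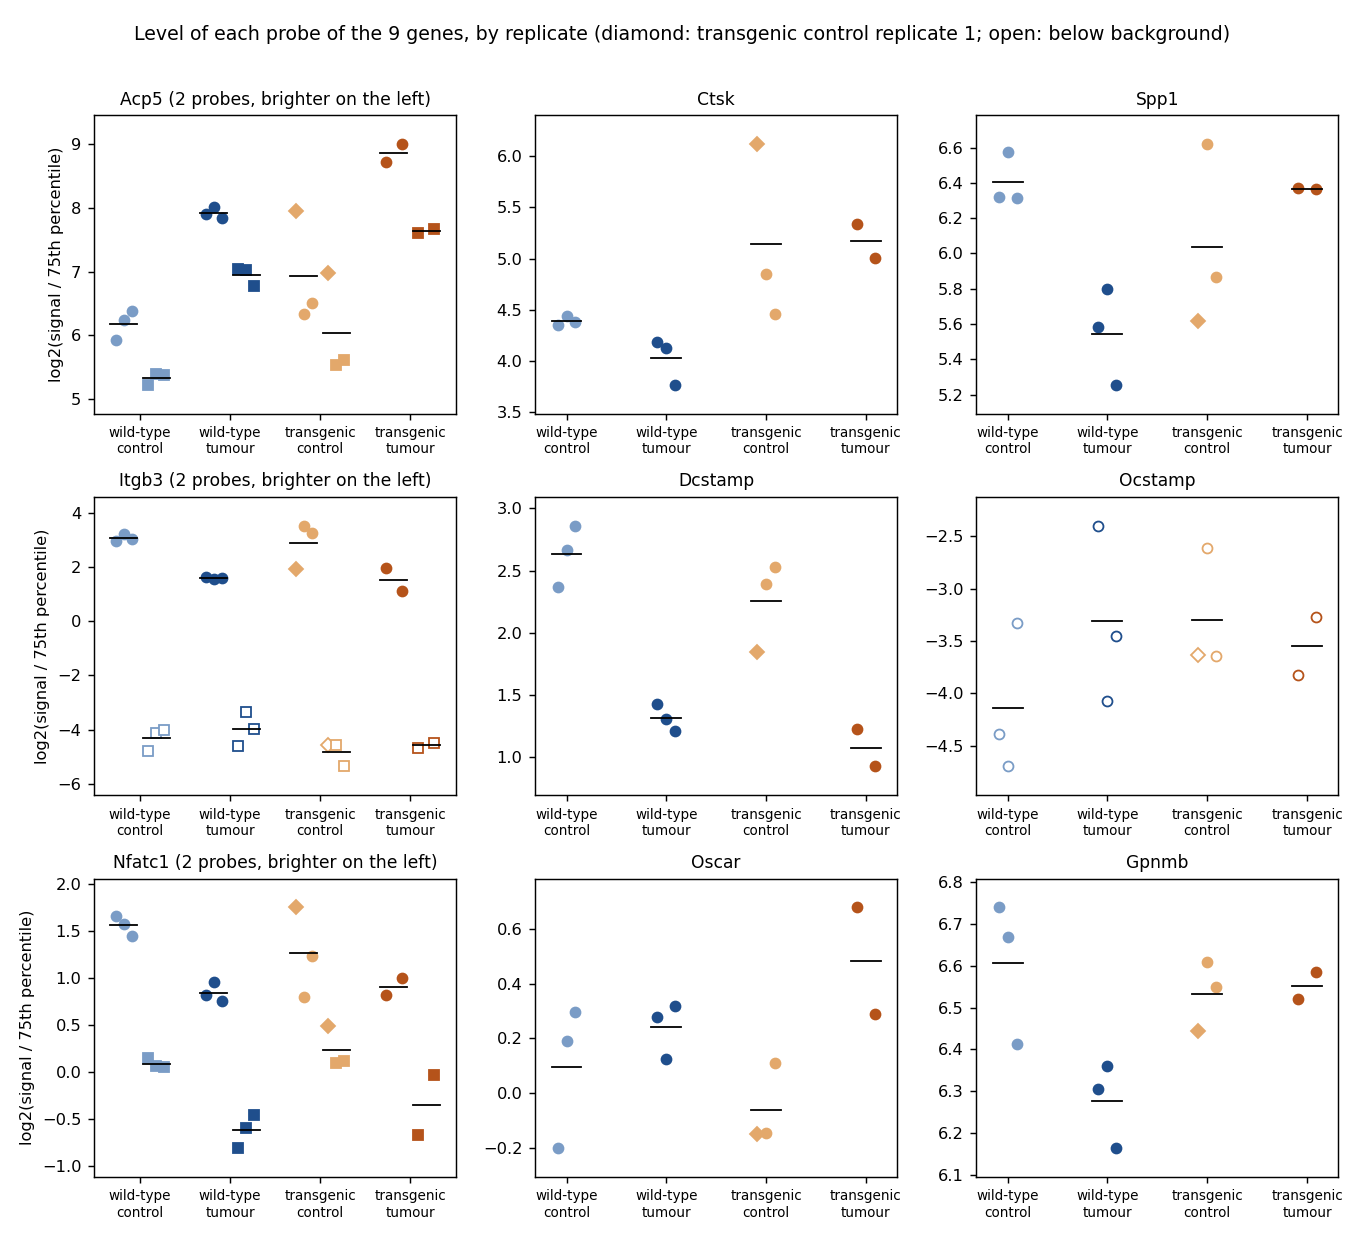
Level of every probe of the 9 genes in each replicate (vertical axes, signal divided by the 75th percentile of its array, as log2; each panel has its own scale), for wild-type and transgenic cells in control medium or with tumour material. Points are replicates, bars are group means, the diamond is transgenic control replicate 1, and open symbols are probes below background on all arrays of the group. Acp5 is higher and Dcstamp lower with tumour material in both genotypes, and the wild-type tumour points of Spp1, 5.26 to 5.80, lie below those of wild-type control and transgenic tumour cells.

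The secreted enzymes came first. Acp5 encodes tartrate-resistant acid phosphatase, the classical stain for osteoclasts, which macrophages also make. Its brighter probe, A_55_P2037608, read 5.93, 6.24 and 6.38 in wild-type control replicates 1 to 3 and 7.90, 8.01 and 7.84 with tumour material. Transgenic controls read 7.94, 6.34 and 6.51, and transgenic tumour replicates 2 and 3 read 8.72 and 8.99. All tumour values lay above all control values within each genotype, and only transgenic control replicate 1 reached the range of wild-type cells with tumour material. The rise was 1.67 (SE 0.29, adjusted p = 0.000777, 3.18-fold) in wild-type cells, with 1.72 within slide 1 and 1.49 within slide 2. In transgenic cells it was 2.02 (SE 0.38, adjusted p = 0.00237, 4.04-fold; 2.35 within slide 2). The second probe, A_55_P1997766, gave 1.56 and 1.74. Without transgenic control replicate 1 the transgenic rise was 2.39 (adjusted p = 1.97e-06), and without transgenic tumour replicate 3 it missed the threshold at 1.83 (adjusted p = 0.0512).

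In order of level, Acp5 was lowest in wild-type control cells, then transgenic control, wild-type tumour and transgenic tumour cells. By the brighter probe the ranges of wild-type and transgenic control cells overlapped, as did those of transgenic control and wild-type tumour cells. By the second probe the control ranges did not overlap, at 5.22 to 5.40 in wild-type and 5.53 to 6.98 in transgenic cells. The genotype difference with tumour material was 1.05 (SE 0.38, adjusted p = 0.156; 0.91 within slide 2), higher in both transgenic replicates than in any of the 3 wild-type ones, and did not pass. It passed without transgenic control replicate 1, at 0.87 (adjusted p = 0.00742), and with the arrays of slide column 4 left out, at 0.77 (adjusted p = 0.0236).

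Ctsk encodes cathepsin K, the protease that digests bone collagen. Its probe read 4.35, 4.44 and 4.38 in wild-type controls and 4.18, 4.13 and 3.77 with tumour material, so the groups were separated, but the difference of −0.42 (SE 0.25, adjusted p = 0.208) did not pass. Transgenic controls read 6.12, 4.85 and 4.46, and transgenic tumour replicates 5.34 and 5.01. Every transgenic replicate lay above every wild-type replicate, in either medium, although transgenic control replicate 3 exceeded the highest wild-type value only narrowly. With tumour material Ctsk was higher in transgenic cells by 1.50 (SE 0.33, adjusted p = 0.0239, 2.83-fold; 1.41 within slide 2). In control medium the difference was 0.79 (SE 0.27, adjusted p = 0.0972; 1.05 within slide 1 and 0.19 within slide 2), or 0.33 (adjusted p = 0.201) without transgenic control replicate 1.

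The Ctsk call depends on single samples and on how repeat arrays are used. It was kept in 14 of 24 alternatives, with the difference between 1.16 and 2.23. Leaving out wild-type control replicate 3, wild-type tumour replicate 3 or either transgenic tumour replicate lost it, with an adjusted p of up to 0.232. Without transgenic control replicate 1 it was 1.35 (adjusted p = 0.0007). In the same setting the wild-type fall passed (−0.42, adjusted p = 0.0178), the transgenic change of 0.28 became a called rise of 0.59 (adjusted p = 0.0241), and the difference between both responses went from 0.71 (adjusted p = 0.578) to 1.02 (adjusted p = 0.0188).

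Spp1 encodes osteopontin, a secreted matrix protein that anchors osteoclasts and that inflammatory macrophages also release. Its probe read 6.32, 6.58 and 6.31 in wild-type controls and 5.58, 5.80 and 5.26 with tumour material. Transgenic controls read 5.62, 6.62 and 5.87, and both transgenic tumour replicates read 6.37. The wild-type tumour group lay lowest, below all values of both wild-type control and transgenic tumour cells. Transgenic controls spread across all 3 other groups and were separated from none of them.

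Spp1 fell in wild-type cells, at −0.91 (SE 0.18, adjusted p = 0.00222, 1.87-fold lower; −0.90 within slide 1 and −0.95 within slide 2). In transgenic cells the difference was 0.56 (SE 0.24, adjusted p = 0.117; 0.50 within slide 2) and did not pass; it passed without transgenic control replicate 2, at 0.74 (adjusted p = 0.0169). The 2 responses differed by 1.47 (SE 0.30, adjusted p = 0.0351; 1.45 within slide 2). With tumour material Spp1 was higher in transgenic cells by 1.15 (SE 0.24, adjusted p = 0.019, 2.22-fold; 1.20 within slide 2), and in control medium the difference was −0.32 (SE 0.20, adjusted p = 0.354; −0.35 within slide 1 and −0.25 within slide 2).

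Both genotype calls for Spp1 were sensitive to processing. The difference between responses was called in 11 of 24 alternatives, at 1.24 to 1.64, and lost without 8 of the 11 replicates taken singly (adjusted p up to 0.346): each of the wild-type controls, tumour replicates 1 and 3 of the wild-type, transgenic control replicate 3 and both transgenic tumour replicates. The difference with tumour material was called in 16 of 24, at 0.89 to 1.45, and lost without wild-type control replicate 3, wild-type tumour replicate 3 or transgenic tumour replicate 3 (adjusted p up to 0.315). Without transgenic control replicate 1 both passed, at 1.27 (adjusted p = 0.00398) and 1.25 (adjusted p = 0.000767).

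**Figure D2:**
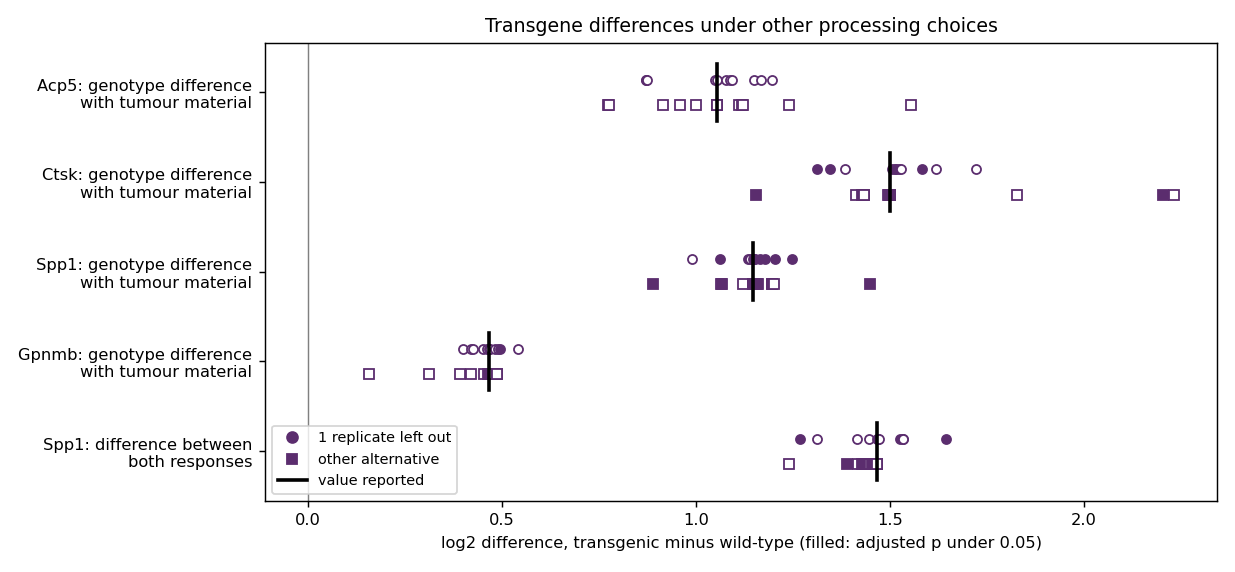
Genotype differences of Acp5, Ctsk, Spp1 and Gpnmb with tumour material, and the difference between both responses for Spp1 (horizontal axis, log2 difference, transgenic minus wild-type), under every alternative. Circles leave out 1 replicate, squares are other settings, filled symbols have an adjusted p under 0.05, and the bar is the value reported. All lie above 0, while the call for each of the 4 genes changes between settings.

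RefSeq promoter sequences (GRCm38.p6) were read for 5 of the 9 genes, in 8 windows of 300 bases from 250 before to 50 after an annotated start. Windows of the other genes were not among the sequences used here, which says nothing about whether RefSeq annotates their starts. Windows of Acp5, Ctsk and Spp1 are shown because these genes had the largest fitted differences between genotypes with tumour material. Of Acp5 and Spp1 only the window holding a match is printed. Their other windows held none of the motifs searched. TFEB and its relatives bind the E-box CACGTG and the related M-box core CATGTG, and PU.1, the myeloid lineage factor, binds motifs with the core GAGGAA. Both strands were searched. Capitals mark the M-box core in Acp5, written CACATG on the strand shown, and the PU.1 core in the others, written TTCCTC where it lies on the other strand.
Acp5, most downstream of 3 annotated starts, minus strand, chr9:22130549-22130848: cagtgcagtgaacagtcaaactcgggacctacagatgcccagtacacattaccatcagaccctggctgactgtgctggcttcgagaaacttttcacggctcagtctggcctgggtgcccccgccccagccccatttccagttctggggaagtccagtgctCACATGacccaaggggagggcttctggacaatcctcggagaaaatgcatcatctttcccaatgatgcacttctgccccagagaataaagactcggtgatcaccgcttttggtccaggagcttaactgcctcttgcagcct
Ctsk, plus strand, chr3:95498960-95499259: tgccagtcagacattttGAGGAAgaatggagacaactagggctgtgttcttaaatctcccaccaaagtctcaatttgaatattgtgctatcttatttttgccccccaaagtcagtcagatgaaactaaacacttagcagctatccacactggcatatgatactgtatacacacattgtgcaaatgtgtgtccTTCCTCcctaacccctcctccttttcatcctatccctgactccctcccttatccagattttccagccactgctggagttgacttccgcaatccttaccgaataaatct
Spp1, first of 2 annotated starts, plus strand, chr5:104434861-104435160: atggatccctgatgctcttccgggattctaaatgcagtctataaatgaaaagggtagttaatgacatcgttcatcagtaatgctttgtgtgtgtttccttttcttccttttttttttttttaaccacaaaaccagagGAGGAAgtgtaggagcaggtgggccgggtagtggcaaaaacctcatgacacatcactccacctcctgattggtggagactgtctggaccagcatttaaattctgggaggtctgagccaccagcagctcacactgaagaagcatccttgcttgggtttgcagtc

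The E-box CACGTG was in 0 of the 8 windows, and 7.15% of all 32851 promoters of this length hold it. The M-box core was in 1 of the 3 Acp5 windows, beginning at position −90 with the start as 0, and in the Oscar window at −6. Of all single promoters, 14.2% hold it. The PU.1 core was in the Ctsk window at −233 and −58, in 1 Spp1 window at −113 and in the Oscar window at −237 and 20, and 28.3% of all promoters hold it. The Gpnmb window held the AP-1 motif TGANTCA at position 8, which 7.81% of promoters hold. These matches are descriptions of letters in the windows.

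Itgb3 encodes the integrin beta chain that pairs with Itgav into the vitronectin receptor, by which osteoclasts grip osteopontin. Its brighter probe read 2.99, 3.21 and 3.06 in wild-type controls and 1.66, 1.55 and 1.60 with tumour material. Transgenic controls read 1.92, 3.53 and 3.26, and transgenic tumour replicates 1.96 and 1.11. In wild-type cells the groups were far apart, and in transgenic cells replicate 1 of the controls fell among the tumour values. Itgb3 fell by 1.48 on the log2 scale in wild-type cells (SE 0.31, adjusted p = 0.00263, 2.79-fold lower; within slides 1 and 2 alike −1.48) and by 1.59 in transgenic cells (SE 0.41, adjusted p = 0.0138, 3.00-fold lower; −1.73 within slide 2). The transgenic fall was −1.94 (adjusted p = 0.0002) without transgenic control replicate 1. It missed the threshold without transgenic control replicate 3 (−1.28, adjusted p = 0.132), without transgenic tumour replicate 3 (−1.03, adjusted p = 0.211) and in 3 further settings. Its genotype differences were −0.19 (SE 0.33, adjusted p = 0.784) in control medium and −0.29 (SE 0.40, adjusted p = 0.744) with tumour material. The second Itgb3 probe, A_66_P126293, lay below background on all 14 arrays.

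The fusion genes came next. Dcstamp encodes a membrane protein that osteoclast precursors need to fuse and that also serves giant cell formation. Its probe read 2.36, 2.67 and 2.86 in wild-type controls and 1.42, 1.30 and 1.21 with tumour material. Transgenic controls read 1.84, 2.39 and 2.53, and transgenic tumour replicates 1.22 and 0.92. Every tumour value lay below every control value, across genotypes as well as within them. The fall had nearly the same size in both genotypes, −1.40 (SE 0.21, adjusted p = 0.000247, 2.63-fold lower; −1.30 within slide 1 and −1.70 within slide 2) and −1.39 (SE 0.27, adjusted p = 0.00297, 2.61-fold lower; −1.45 within slide 2). The 2 responses differed by 0.01 (SE 0.34, adjusted p = 0.995), with an error too wide to call them equal. The call in transgenic cells held in all 24 alternatives run, at −1.51 to −1.19. Between genotypes the differences were −0.45 (SE 0.22, adjusted p = 0.238) in control medium and −0.44 (SE 0.27, adjusted p = 0.41) with tumour material.

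Ocstamp, the partner of Dcstamp in fusion, was not well above background on any of the 14 arrays. Its values ran from −4.70 to −2.40. On 3 of the 14 arrays, wild-type tumour replicate 1, transgenic control replicate 2 and the repeat array of transgenic tumour replicate 3, it exceeded the dimmest signal called well above background on the same array. No change in Ocstamp is given, since none of its signals was called above background.

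Nfatc1 is the master transcription factor of osteoclast formation. The brighter probe, A_51_P517870, read 1.66, 1.57 and 1.44 in wild-type controls and 0.81, 0.96 and 0.75 with tumour material. Transgenic controls read 1.75, 0.80 and 1.23, and transgenic tumour replicates 0.82 and 0.99. By this probe the wild-type groups were separated and the transgenic groups were not, since transgenic control replicate 2 was as low as the tumour samples. Nfatc1 fell in wild-type cells, at −0.71 (SE 0.17, adjusted p = 0.00622, 1.64-fold lower; −0.68 within slide 1 and −0.82 within slide 2), and missed the threshold without wild-type tumour replicate 3 (−0.66, adjusted p = 0.0701) and in the arrays of slide 1 alone (adjusted p = 0.0552) or slide 2 alone (adjusted p = 0.138). The difference in transgenic cells was −0.24 (SE 0.23, adjusted p = 0.484). The second probe, A_51_P220135, whose accession is of another transcript of the gene, gave −0.67 (SE 0.21, adjusted p = 0.0232) and −0.43 (SE 0.27, adjusted p = 0.286). By it the transgenic groups were separated too, with controls at 0.48, 0.09 and 0.12 and tumour replicates at −0.67 and −0.03. The last is the mean of arrays at −0.44 and 0.37. For the brighter probe the responses differed by 0.47 (SE 0.28, adjusted p = 0.586), and the genotypes by −0.26 (adjusted p = 0.418) in control medium and 0.21 (adjusted p = 0.665) with tumour material. Without transgenic control replicate 1 the difference of this probe in control medium was called lower, at −0.51 (adjusted p = 0.0481). The second probe did not share that fall. On it, transgenic control replicates 2 and 3, at 0.09 and 0.12, lay among the wild-type controls, at 0.06 to 0.14. With all replicates its genotype differences were 0.16 (SE 0.22, adjusted p = 0.72) in control medium and 0.39 (SE 0.27, adjusted p = 0.469) with tumour material.

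Oscar encodes a collagen receptor of osteoclasts that signals through Fcer1g. Its probe read −0.20, 0.19 and 0.30 in wild-type controls, 0.28, 0.13 and 0.32 with tumour material, −0.15, −0.15 and 0.11 in transgenic controls, and 0.68 and 0.29 in transgenic tumour replicates. Of the groups compared, only those of transgenic cells did not overlap: both tumour values exceeded all 3 controls. Neither response passed, at 0.12 (SE 0.12, adjusted p = 0.492) in wild-type and 0.29 (SE 0.16, adjusted p = 0.233) in transgenic cells. With no slide term the transgenic difference passed, at 0.48 (adjusted p = 0.0463), and over all alternatives it ran from 0.14 to 0.54. The genotypes differed by −0.23 (SE 0.13, adjusted p = 0.32) without tumour material, and by −0.06 (SE 0.16, adjusted p = 0.887) where it was added, neither past the threshold. The last of these has no settled direction: the fit, which holds the slide as a term, put transgenic cells lower, whereas the plain replicate means were 0.48 in transgenic and 0.24 in wild-type tumour cells.

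Gpnmb encodes a membrane glycoprotein of lysosome-rich macrophages and osteoclasts and is a known target of Mitf and its relatives. Its probe read 6.74, 6.67 and 6.41 in wild-type controls, 6.31, 6.36 and 6.16 with tumour material, 6.44, 6.61 and 6.55 in transgenic controls, and 6.52 and 6.58 in transgenic tumour replicates. All 11 values lay within a narrow range, with the wild-type tumour group at the bottom. Gpnmb fell slightly in wild-type cells, at −0.31 (SE 0.11, adjusted p = 0.0372, 1.24-fold lower; −0.35 within slide 1 and −0.20 within slide 2). It was kept in 15 of 25 alternatives and lost without any of wild-type control replicates 1 and 2 and wild-type tumour replicates 1, 2 and 3 (adjusted p of 0.227 without the last). Averaging repeat arrays lost it too. Transgenic cells showed a difference of 0.17 (SE 0.14, adjusted p = 0.435). With tumour material the genotypes differed by 0.47 (SE 0.14, adjusted p = 0.0912; 0.48 within slide 2), both transgenic values exceeding all wild-type ones, and this passed without transgenic control replicate 1 (0.50, adjusted p = 0.0331).

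**Figure D3:**
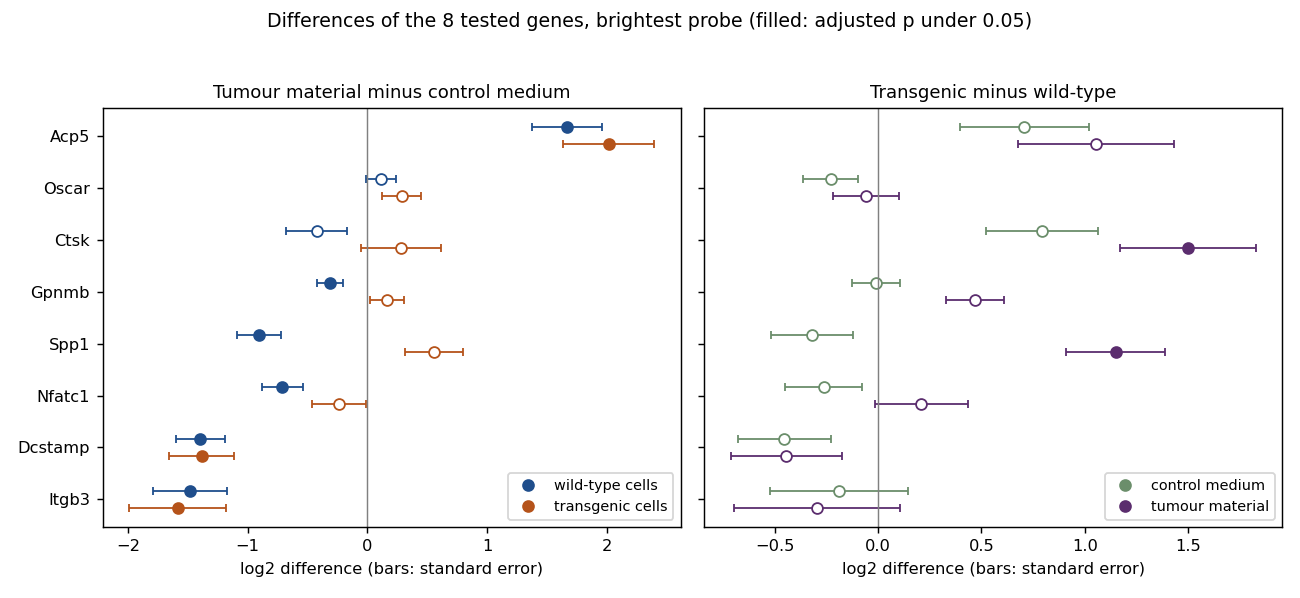
Fitted log2 differences of the brightest probe of the 8 tested genes, with standard errors as bars. The left panel shows tumour material minus control medium in wild-type and transgenic cells, the right panel transgenic minus wild-type in each medium; filled points have an adjusted p under 0.05. Acp5 lies to the right and Dcstamp and Itgb3 to the left in both genotypes, and Ctsk and Spp1 are the filled points of the right panel.

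Between genotypes in control medium, limma called 0 of 8 genes, where 3.38% of all probes were called higher and 5.07% lower. The largest differences were those of Acp5 (0.71, adjusted p = 0.188) and Ctsk (0.79, adjusted p = 0.0972). Without transgenic control replicate 1 their differences were 0.15 (adjusted p = 0.57) and 0.33 (adjusted p = 0.201). In that setting 1 of 8, Nfatc1, was called lower by its brighter probe, where 5.99% of probes were called higher and 8.09% lower. The second Nfatc1 probe stood at 0.16 in the reported fit. Where tumour material was added, 2 of 8 were higher in transgenic cells, Ctsk and Spp1, and 0 lower, where 1.85% of probes were called higher and 2.53% lower. Leaving out transgenic control replicate 1 gave 4 of 8, with Acp5 and Gpnmb added, where 4.23% of probes were called higher and 4.93% lower. In the reported fit the median difference with tumour material was 0.34, against −0.01 over all genes. The responses themselves differed for 1 of 8, Spp1, where 0.876% of probes had a higher and 0.747% a lower response in transgenic cells. Without that replicate there were 2, Spp1 and Ctsk, against 3.07% and 2.42% of probes. With all replicates the median difference between responses was 0.41, against 0.02 over all genes. The differences of Acp5 (0.35, SE 0.48), Itgb3 (−0.11, SE 0.51) and Oscar (0.17, SE 0.21) were smaller than their errors, and that of Gpnmb (0.48, SE 0.18, adjusted p = 0.275) did not pass. These comparisons share samples, so their values are not independent of each other.

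The single Tfeb probe averaged 1.19 ± 0.29 (SD, n = 3) over transgenic controls and 0.90 ± 0.09 (n = 3) over wild-type controls, a difference of 0.31 (SE 0.13, adjusted p = 0.175). With tumour material it was higher in transgenic cells by 0.69 (SE 0.16, adjusted p = 0.0293), a call lost without 6 of the 11 replicates taken singly (adjusted p up to 0.137). The sources used here do not say whether this probe detects the transgene.

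The surrounding pathway was read from 7 lists of genes. Each count below stands against the share of all probes called, 22.6% higher and 16.9% lower in wild-type and 14.7% higher and 10.2% lower in transgenic cells, and nothing particular to a list is read from it. These shares were 25.8%, 19.6%, 17.5% and 13.2% without transgenic control replicate 1. Some of the calls counted, also of genes not named, were lost when 1 replicate was left out.

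Among osteoclast signals, 3 of 5 tested genes rose in wild-type cells, where 22.6% of all probes rose, and 3 of 5 in transgenic cells, where 14.7% did; 0 fell in either (medians 0.57 and 0.58, against 0.05 and 0.06 over all genes). The decoy receptor for RANKL, Tnfrsf11b, was dim on all control arrays (not well above background). It was at least 3.71-fold higher in wild-type cells and at least 8.13-fold higher in transgenic cells. Such bounds set the bright group's mean against the dimmest signal well above background on each dim array, or the probe's own where higher. Tnfrsf11b entered the test only through the tumour groups, so no p-value is given. It is among the genes counted as rising in both genotypes. The RANKL receptor Tnfrsf11a rose in wild-type cells by 0.57 (adjusted p = 0.0126), and with tumour material it was lower in transgenic cells, at −1.15 (SE 0.20, adjusted p = 0.00748). The first call was lost without wild-type control or wild-type tumour replicate 3 and the second without the latter (adjusted p up to 0.105 and 0.172). The adaptor Traf6 rose by 0.63 and 0.58, the second lost without 6 of the 11 replicates (adjusted p up to 0.425) and the first without wild-type tumour replicate 3 (adjusted p = 0.0642). Csf1, which encodes M-CSF, rose by 2.04 (SE 0.35, adjusted p = 0.00125) in transgenic cells and stood at −0.06 in wild-type ones, and the responses differed by 2.11 (SE 0.44, adjusted p = 0.0359), a call lost without 8 of the 11 replicates (adjusted p up to 0.233). RANKL itself (Tnfsf11) was above background on no array.

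Of the genes for costimulation through immune receptors and its kinases, 1 of 7 rose and 1 fell in wild-type cells, where 22.6% and 16.9% of all probes did, and 0 rose and 1 fell in transgenic cells, where 14.7% and 10.2% did; both counts are near or below those shares. In wild-type cells 3 rose and 2 fell without transgenic control replicate 1. Trem2, a receptor that signals through Tyrobp, fell in both, at −0.93 (adjusted p = 0.000129) and −0.52 (adjusted p = 0.0388), the second lost without 9 of the 11 replicates (adjusted p up to 0.302). Fcer1g, the signalling partner of Oscar, rose by 0.49 (adjusted p = 0.012) in wild-type cells, a call lost without wild-type control or wild-type tumour replicate 3 (adjusted p up to 0.2).

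Among transcription factors that take part in osteoclast formation, 7 of 12 rose and 1 fell in wild-type cells, where 22.6% and 16.9% of all probes did. The rises of Fosl2, Nfkb2, Rela and Relb did not pass without wild-type tumour replicate 3. Nfkb1 rose by 1.04 (SE 0.16), while Fos, a partner of Nfatc1, fell at −1.31 (SE 0.18, adjusted p = 0.000127). In transgenic cells 5 rose and 0 fell, where 14.7% and 10.2% of all probes did; without transgenic control replicate 1, 6 rose and Fos fell (−0.81, adjusted p = 0.000292). The transgenic rises of Junb, Nfkb2 and Relb did not pass without transgenic control replicate 3. With all replicates the median of the 12 was 0.42 in wild-type and 0.36 in transgenic cells. Mitf differed between responses by 0.76 (SE 0.14, adjusted p = 0.0164), a call lost without 4 of the 11 replicates (adjusted p up to 0.225).
The factors that restrain osteoclast formation showed 4 of 7 rising and 1 falling in wild-type cells, against 22.6% and 16.9% of all probes, and 3 rising and 1 falling in transgenic cells, against 14.7% and 10.2%. In wild-type cells 5 rose without transgenic control replicate 1. The wild-type rises of Id2 and Rcan1 and the transgenic rise of Id2 did not pass without wild-type tumour replicate 3. Id1 rose by 2.19 and 2.36, and Rbpj, which dampens Nfatc1 induction by inflammatory signals, by 1.25 (SE 0.13) and 1.46 (SE 0.17). Bcl6 fell in both, at −0.74 (SE 0.13) and −1.34 (SE 0.17).

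Of 8 other fusion genes, 2 rose and 3 fell in wild-type cells, where 22.6% and 16.9% of all probes did, and 1 rose and 1 fell in transgenic cells, where 14.7% and 10.2% did. The rising share in wild-type cells and both shares in transgenic cells are near those of all probes. In wild-type cells 4 fell when transgenic control replicate 1 was left out. Atp6v0d2, a proton pump subunit needed for fusion of osteoclast precursors, fell in wild-type cells at −1.78 (SE 0.23, adjusted p = 9.06e-05), against −0.15 (SE 0.30, adjusted p = 0.769) in transgenic cells. With tumour material it was higher in transgenic cells by 1.69 (SE 0.30, adjusted p = 0.00781), lost without replicate 3 of wild-type or of transgenic tumour cells (adjusted p up to 0.239). The difference between responses of 1.63 did not pass (SE 0.38, adjusted p = 0.0602), and passed without transgenic control replicate 1 (1.40, adjusted p = 0.0156) or 2 (1.75, adjusted p = 0.049). The tetraspanin Cd81 fell with Dcstamp in both genotypes, at −1.17 and −1.35, and was higher in transgenic cells in both media, by 1.24 (adjusted p = 0.00293) and 1.06 (adjusted p = 0.0283), the second lost without 6 of the 11 replicates (adjusted p up to 0.183). Cd47 rose by 0.95 and 0.84.

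Among bone resorption genes, 4 of 10 rose and 2 fell in wild-type cells, against 22.6% and 16.9% of all probes, and 5 rose and 0 fell in transgenic cells, against 14.7% and 10.2%. With transgenic control replicate 1 left out, 3 fell in wild-type and 2 in transgenic cells. Carbonic anhydrase Car2, which supplies protons for bone dissolution, was below background on all control arrays. It was at least 8.37-fold higher in wild-type and at least 9.4-fold higher in transgenic cells. Car2 entered the test only through the tumour groups, so no p-value is given. It is among the genes counted as rising in both genotypes. The gelatinase Mmp9 rose by 5.31 (SE 0.79) in wild-type cells. In transgenic cells only 1 of 3 control arrays measured it, so no fold is given: the highest control read 0.65 and the tumour replicates 0.76 and 0.79. It is 1 of the 5 genes counted as rising there, a call lost without 5 of the 11 replicates (adjusted p up to 0.237). Mmp14 rose by 1.12 (SE 0.21) and 2.85 (SE 0.28), a difference between responses of 1.73 (SE 0.35, adjusted p = 0.0308) that was lost without 8 of the 11 replicates (adjusted p up to 0.252), and was lower in transgenic controls, at −1.55 (SE 0.23, adjusted p = 0.00176). Integrin receptors and their activators showed 2 of 8 rising and 2 falling in wild-type cells, where 22.6% and 16.9% of all probes did, and 0 rising and 1 falling in transgenic cells, where 14.7% and 10.2% did. The counts without transgenic control replicate 1 were 3 rising in wild-type and 3 falling in transgenic cells. Itga4 fell at −2.21 (SE 0.20) and −1.46 (SE 0.26). Itgav, the partner of Itgb3, was at −0.83 (SE 0.43, adjusted p = 0.149) and −0.96 (SE 0.57, adjusted p = 0.254) and did not pass; without transgenic control replicate 1 the second passed, at −1.37 (adjusted p = 0.0415).

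**Figure D4:**
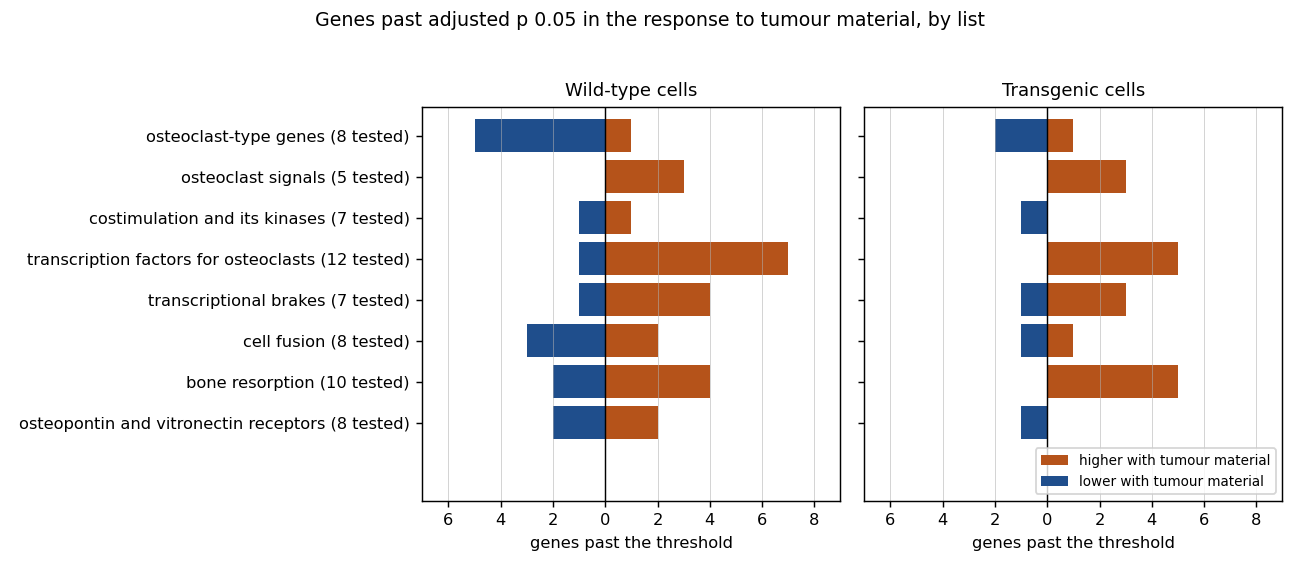
Number of genes past an adjusted p of 0.05 in the response to tumour material (horizontal axis, lower to the left and higher to the right of 0), for the osteoclast-type genes and 7 lists of the surrounding pathway, in wild-type and transgenic cells. Some of these calls were lost when 1 replicate was left out. In wild-type cells 5 of the 8 osteoclast-type genes are lower and 1 is higher, and 7 of 12 transcription factors are higher and 1 is lower, where 22.6% of all probes are higher and 16.9% lower; the lists were not tested against each other.

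Of 9 markers of mature osteoclasts, Acp5, Ctsk, Dcstamp and Ocstamp are among the genes described above, so the list is no separate check of them. Calcr, the calcitonin receptor, and Ocstamp were above background on no array. Of the 7 tested, 4 rose and 2 fell in wild-type cells, where 22.6% and 16.9% of all probes did, and 3 rose and 1 fell in transgenic cells, where 14.7% and 10.2% did. Car2, among those rising in both, entered the test only through the tumour groups. Leaving out transgenic control replicate 1 gave 3 falling in wild-type and 4 rising in transgenic cells.

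The named genes most like each of the 8 across the 11 replicates, by Pearson correlation over 10966 genes, were Gm12250 for Acp5 (0.989), Anapc5 for Ctsk (0.919), Tst for Dcstamp (0.981), Tmem50b for Nfatc1 (0.993), Aldh18a1 for Spp1 (0.910), Map6 for Oscar (0.912), Wtip for Itgb3 (0.978) and Rpl7a for Gpnmb (0.913). The replicates fall into groups by medium, so these values describe a shared pattern over these samples. For Dcstamp the next were Slc5a3 (0.978) and Slc17a5 (0.976), for Itgb3 Mocos (0.975) and Ifi27 (0.975), and for Acp5 F7 (0.979) and Kcnab1 (0.975).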

How the data were processed

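Per the labels, 200 ng of RNA per sample was labelled with Cy3 and hybridised to one-colour Agilent mouse arrays, scanned with Feature Extraction 10.7.3.1 per the submitters' processing notes. The deposited scanner intensity is background-subtracted and detrended, per the file headers. The deposited series matrix holds log2 values (median 2.851 in each column, correlation with the log2 scanner intensity of 0.9987 to 1) and served as an alternative.

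Uneven spots (166 to 270 per array) were left out, spots of 1 probe averaged, and log2 intensity scaled to the array's 75th percentile (83.0 to 142). A probe was tested where every array of some group had it well above background (20208 probes). limma 3.58.1 (R 4.3.3) fitted the 4 groups with slide as a covariate; repeat arrays formed a random block with their replicate (correlation 0.0478, also used in most alternatives). All p-values are adjusted over all kept probes, with a threshold of 0.05. Titles ending in -2 were read as repeat arrays. A gene's brightest kept probe gave its call. Normexp used the median signal, not the mean. The number of arrays limits precision. The fit was tested on simulated data.

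The 9 genes and all lists were chosen with earlier results of these data known. Named were all 9 genes, Tfeb, up to 3 passing genes with the largest difference per list and comparison, and the 3 most alike genes. Itgav, single cell type markers and genes named only for a lost call were added after their values were seen.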

Additional observations from a re-analysis of the deposited data

Results flagged for a closer look

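The response of Spp1 to tumour material differed between genotypes by the test of the difference itself, at 1.47 on the log2 scale (transgenic minus wild-type, SE 0.30, limma adjusted p = 0.0351). It was −0.91 in wild-type and 0.56 in transgenic cells, and the difference within slide 2 was 1.45. The call was kept in 11 of 24 alternatives and lost without 8 of the 11 replicates taken singly, with no filter on dim probes, with no slide term, with repeat arrays averaged or left out, and on slide 2 alone (adjusted p up to 0.346).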

How the results depend on the processing

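In 25 alternatives no difference of the 8 tested genes that was called turned its direction. Acp5, Dcstamp, Spp1 and Itgb3 in wild-type cells were each called in 24 of 25, all but slide 2 alone, where 1 array of each group other than transgenic tumour remains. Leaving out single replicates gave 4 to 7 of the 8 genes called in the wild-type response, 1 to 4 in the transgenic response, 0 to 1 between genotypes in control medium, 0 to 4 with tumour material and 0 to 2 between responses. Over all probes these ranges were 4830 to 9174, 3032 to 6204, 473 to 2844, 130 to 1852 and 51 to 1111, against 7993, 5043, 1709, 885 and 328 in the reported fit. The cause was not tested for any of these shifts.

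With tumour material, 0 of the 8 genes were called between genotypes with no filter on dim probes (456 probes), repeat arrays averaged (177), repeat arrays left out (219), slide column 4 as a term (575) and slide 2 alone (0), against 2 in the reported fit; no slide term gave 1700 probes. Between responses, 0 of the 8 were called with no filter (154 probes), no slide term (498), averaging (65), repeat arrays left out (110) and slide 2 alone (0). The transgenic response had 3302 probes called with no filter, 3273 with averaging and 2359 on slide 2, and the wild-type response 1365 on slide 2, with 0 of the 8 genes. Averaging repeat arrays called 5 of the 8 genes (6768 probes) in the wild-type response and 2 of the 8 in the transgenic response. The wild-type fall of Gpnmb and the transgenic fall of Itgb3 did not pass with averaging. In control medium, no filter gave 880 probes, slide column 4 as a term 681 and slide 2 alone 0, and normexp called 1 gene, Ctsk. Leaving out the arrays of slide column 4, chosen after seeing the data, called 4 genes with tumour material (2074 probes) and 2 between responses (1302 probes).

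Replicate numbers were not used as pairs in the reported fit. Same-numbered samples' deviations correlated at −0.22 to 0.19, with 3 of 15 pairs over 0.1. Other-numbered ones correlated at −0.22 to 0.22, with 7 of 30 over 0.1. Deviations cancel out within each small group and the pairs share samples, so these values cannot show that pairing was absent. With the replicate block, 1 of the 8 genes (Spp1, 1.07) was called with tumour material, with 558 probes, and Ctsk (1.43, adjusted p = 0.051) and the wild-type Gpnmb fall (adjusted p = 0.0685) missed the threshold. Leaving out a transgenic tumour replicate left 1 sample in that group, which was assumed to vary like the other groups. Leaving out replicates for the list genes and Tfeb was added after seeing the data.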
